A study of Xenopus tropicalis with 9 samples.

Results

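Of the 10336 genes in the deposited data, 90 were high in immature chondrocytes and low in mature replicates 2 and 3. A gene was taken when its lowest value in the 3 immature libraries was at least 95.2 normalised counts, which is 10 times u, and at least 4 times the higher value of mature replicates 2 and 3 after u was added to it. Here u is 9.52 normalised counts, the mean library total divided by 1000000. Mature replicate 1 and the 3 osteoblast libraries took no part in the choice. Of the 3936 genes that reached the immature minimum, 2.29% were chosen. The choice fixed the gap between the immature libraries and mature replicates 2 and 3, so that gap is described and not tested.

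The RNA came from tissue cut out with a laser from sections of untreated, wild-type Xenopus tropicalis, the western clawed frog, at stage NF 57, an age of 22 to 24 days post fertilisation at 27 to 28 °C. Immature chondrocytes and mature chondrocytes were both taken from the humerus, and osteoblasts from the medial angulosplenial bone of the lower jaw, with 3 libraries in each group. Osteoblasts and chondrocytes therefore differed in body site as well as in cell type, and these cannot be told apart. How the captured areas were chosen is not given in the sources used here, and no label links a library with an animal. The p-values below thus reflect only how far these libraries spread, which may be technical, and are too small if captured areas of a group share an animal.

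Chondrocytes of a growing limb element are small and dividing while immature and secrete a matrix rich in type II collagen and aggrecan. As they mature they enlarge, slow their division and change the matrix they make. Osteoblasts lay down bone on a matrix rich in type I collagen, and in tetrapods mature chondrocytes and osteoblasts are known to share part of their expression programme. Whether the 90 genes belong to any of these programmes cannot be read here, because the table names genes by Ensembl identifiers and the reference table paired 0 of the 10336 with a symbol. The labelled cell types could not be checked against defining markers for the same reason.

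Deposited totals were 7594328 to 14055110 normalised counts per library, from an estimated 7160000 to 13070000 reads. Mature replicates 2 and 3 had the highest totals of the 9 libraries, 11414708 and 14055110, and in each of them 1 read was worth an estimated 1.59 normalised counts, against 0.732 to 1.17 in the other 7. In osteoblast replicate 1 it was 0.998, so close to 1 that low values hardly skip or double and the estimate is uncertain. The number of genes listed at 0 was 2014 in mature replicate 2, 1430 in mature replicate 3, 958 in mature replicate 1 and 759 to 1026 among immature libraries. It was 2231 in osteoblast replicate 1. The part of these library features in the results was not tested.

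The mature libraries did not act as 1 group for these genes. The median log2 difference from the immature mean, on the log2(value + 9.52) scale used throughout, was -3.89 in mature replicate 2 and -3.12 in mature replicate 3, which the choice of genes fixed to be low. In mature replicate 1, which played no part in the choice, the median was 0.23, with a range over the 90 genes of -0.85 to 1.48. Mature replicate 1 was close to the immature libraries over genes in general. Across the 9080 tested genes the middle 50% of its differences from the immature mean lay between -0.31 and 0.31, against -1.01 to 0.57 in mature replicate 2 and -0.76 to 0.56 in mature replicate 3. The middle 50% of an immature library against the mean of the other 2 ran from -0.39 to 0.34 in immature replicate 1. It ran from -0.29 to 0.31 in immature replicate 2 and from -0.35 to 0.36 in immature replicate 3. Mature replicate 1 was set against a mean of 3 libraries and each immature library against a mean of 2, so these ranges are only roughly comparable. On them, mature replicate 1 lay about as near the immature mean as immature libraries lay to each other. Whether the label of mature replicate 1 matches the cells captured was not tested. With that library as labelled, the genes were not low in every mature library, and they are described here as high in immature chondrocytes and low in mature replicates 2 and 3.

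Mature replicate 1 lay at or above the lowest immature library for 81 of the 90 genes (90.0%), where 76.9% of the 3936 genes at the immature minimum did so. It lay within the immature range for 46 of them (51.1%, against 45.8% of the 3936). It was above every immature library for 35 (38.9%) and under every immature library for 9 (10.0%). Among the 3846 other genes at the immature minimum these shares were 30.9% and 23.5%. It was nearer to the immature mean than to the mean of mature replicates 2 and 3 for 74.9% of the 3846 other genes at the immature minimum, and for all 90 chosen genes, where the choice itself set the latter mean far off. It stayed at or under 4 times the higher of those libraries, u added, for 5 genes, where the ratio was 2.90 to 3.84. Because this is a single library, no test was made.

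Among the immature libraries, mature replicate 1 was most like immature replicate 3. The median absolute log2 difference over the 90 genes was 0.25 to immature replicate 3, 0.43 to immature replicate 2 and 0.55 to immature replicate 1. Immature replicate 3 was its nearest immature library for 49 of the 90 genes (54.4%), and for 50.0% of the 3846 other genes at the immature minimum, so this likeness was not confined to the chosen genes. Mature replicate 3 shares the number 62 in its sample title with immature replicate 3, yet the median absolute difference between them was 3.20 over the 90 genes, a gap that the choice of genes fixed, and 0.63 over the 3846 others.

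**Figure D1:**
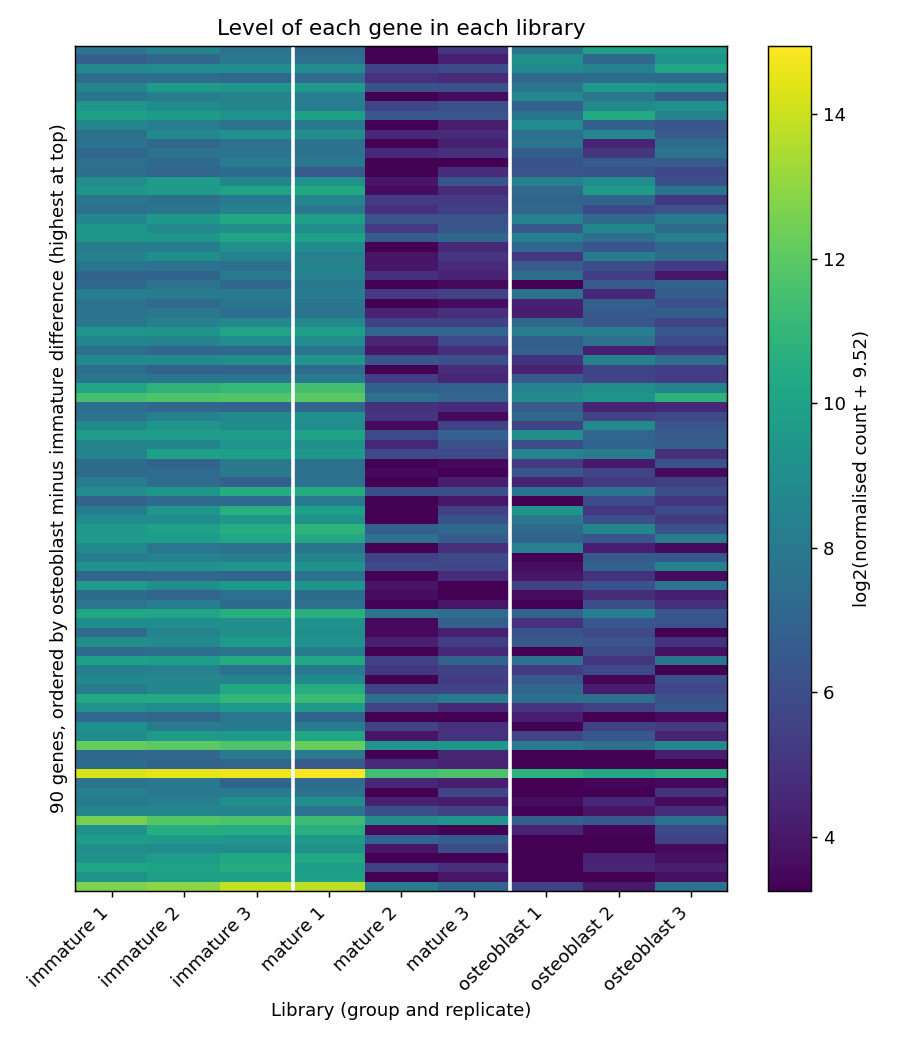
Levels of the 90 genes (rows) in the 9 libraries (columns) as log2(normalised count + 9.52), with rows ordered by the osteoblast minus immature difference. Mature replicate 1 has the colours of the immature libraries, and mature replicates 2 and 3 are darker than the immature libraries in every row. The osteoblast libraries are mixed, and come nearest to or pass the immature colours in the top rows.

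Levels in immature chondrocytes spanned a wide range. The mean immature value was under 200 normalised counts for 24 genes, from 200 to under 500 for 28, from 500 to under 1000 for 26 and from 1000 to under 3000 for 7. In the remaining 5 it was 3329 or more. Values are not divided by transcript length, so these bands do not rank the genes by molecules. The 3 immature libraries lay within a 2-fold range, u added, for 72 of the 90 genes (80.0%), against 81.1% of the other genes at the immature minimum. Immature replicate 3 was the highest of the 3 for 50 genes (55.6%), against 44.5% of the other genes at the immature minimum.

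The most abundant of the 90 held 19703, 23027 and 26663 normalised counts in the immature libraries. Mature replicate 1 held 31470, and mature replicates 2 and 3 held 2657 and 3174. Its osteoblast values were 1688, 1179 and 1569. The osteoblast and immature libraries of this gene did not overlap, and its levels in mature replicates 2 and 3 lay between those of the other libraries.

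As a share of all deposited counts, the 90 genes made up 0.839%, 1.03% and 1.21% of the immature libraries. They made up 1.40% of mature replicate 1, and 0.0590% and 0.0579% of mature replicates 2 and 3. In osteoblasts the share was 0.165%, 0.166% and 0.131%, below every immature library and above mature replicates 2 and 3. Without the most abundant gene the shares were 0.616% to 0.885% in immature libraries and 0.982% in mature replicate 1. They were 0.0357% and 0.0353% in mature replicates 2 and 3, and 0.116% to 0.153% in osteoblasts. Osteoblasts thus stayed below every immature library without that gene. The low shares of mature replicates 2 and 3 were fixed by the choice of genes, so their place in the order is only described.

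By the ratio that the choice used, most of the 90 genes lay close to the threshold of 4. That ratio sets the lowest immature value against the higher mature one with u added, so it is smaller than the drop from the immature mean. The lowest immature value divided by the higher of mature replicates 2 and 3 plus u had a median of 6.12 and lay between 4 and 8 for 62 genes, between 8 and 16 for 20 and at 16 or more for 8, with 63.4 as the highest. Both libraries were under u for 16 of the 90 genes and listed at 0 for 3. Mature replicate 2 was at 0 for 26 genes and mature replicate 3 for 7. The gene just inside the fold threshold had immature values of 115, 122 and 260 and held 19 and 11 in mature replicates 2 and 3. A gene just outside it had 186, 309 and 220 and held 37 and 27. On the level threshold, the lowest immature minimum among the chosen genes was 106, and 43 genes past the fold missed the level, with 92 as their highest immature minimum.

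The limma test of mature against immature chondrocytes called 0 of the 90 genes, where 0.0% of 9080 tested genes were called lower. At an unadjusted limma p under 0.05, 67 of the 90 were lower and 0 higher, with no count made over all tested genes at that threshold. Without mature replicate 1 the same test called 66 of the 90 lower, with 1.28% of all tested genes called lower, and with library quality weights 85, with 2.51% called lower. The genes were chosen on this contrast, so nothing is read from these counts.

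**Figure D2:**
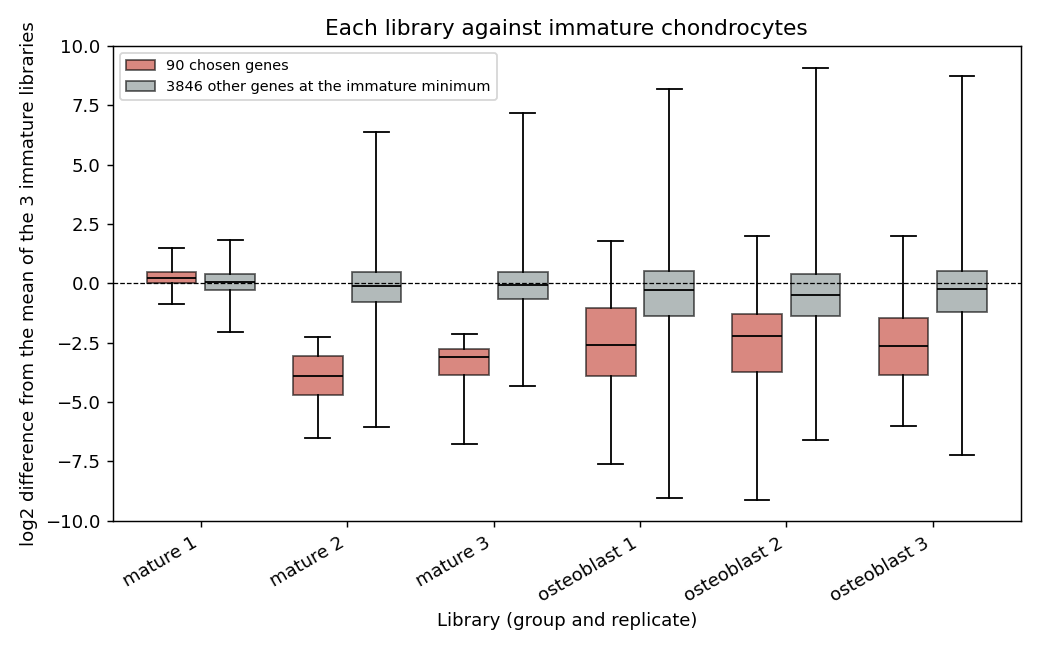
Difference of each mature and osteoblast library from the immature mean (vertical axis, log2 scale) for the 90 chosen genes and for the 3846 other genes at the immature minimum. Boxes span the quartiles with the median as a line, and whiskers run to the lowest and highest gene. The boxes of the 90 genes lie near 0 in mature replicate 1, with a median of 0.23, and below 0 in the other 5 libraries, where mature replicates 2 and 3 are low by the choice of genes.

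Osteoblasts, which took no part in the choice, held most of the 90 genes at lower levels than immature chondrocytes. The median osteoblast minus immature log2 difference was -2.33 over the 90 genes, against -0.40 over the 3846 other genes at the immature minimum and -0.23 over all 9080 tested genes. In bulk samples such as these, fewer cells of a type and less RNA per cell cannot be told apart. All 90 genes passed the filter on low values, which their immature values alone ensured.

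In osteoblasts 26 of the 90 genes were lower than in immature chondrocytes and 0 were higher (limma, adjusted p under 0.05, adjusted over 9080 genes). Of all tested genes 5.51% were called lower and 7.79% higher, and of the 3936 genes at the immature minimum 8.77% were called lower and 2.34% higher. The choice demanded high immature values, which by itself favours a lower osteoblast level, and the 3936 genes share that demand on the minimum. Apart from the 90 among them, they do not meet the demand for a gap to mature replicates 2 and 3. That demand also draws on the immature values. The 26 genes had log2 differences of -7.43 to -2.70, with a median of -3.93. Every immature library lay above every osteoblast library for all 26. For the 64 genes that did not pass, the difference ran from -3.85 to 1.22, and for 46 of them the groups did not overlap either. Of the 3936 genes at the immature minimum, 24.8% had every immature library above every osteoblast library. The spread behind these calls was fitted over all 3 groups, the mature libraries included. The median SD over the mature libraries was 2.27 for the 90 genes and 0.55 for the other genes at the immature minimum. The choice of genes fixed mature replicates 2 and 3 to be low. The call on 26 genes became 14 without immature replicate 3 (1.92% of all tested genes called lower), 47 without mature replicate 1 (7.15%) and 43 when only the 6 libraries of both groups were fitted (6.53%). In each of these fits 0 of the 90 genes were called higher, against 456, 747 and 677 of all 9080 tested genes.

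Over the 90 genes, every immature library lay above every osteoblast library for 72 (80.0%), where 24.8% of the 3936 did so. The lowest immature library was at least 4 times the highest osteoblast library plus u for 25 of the 90 (27.8%), where 2.62% of the 3936 met that gap. These 25 genes meet in osteoblasts the same gap that chose the 90 in mature replicates 2 and 3. The lowest immature value was also used in that choice, which by itself favours higher shares among the 90. Apart from the 90 among them, the 3936 genes met only the immature minimum. By size, 12 genes had an osteoblast minus immature difference under -4, 42 from -4 to under -2, 24 from -2 to under -1 and 9 from -1 to under 0, and for 3 it was above 0. In that order, the shares under 0 were 13.3%, 46.7%, 26.7% and 10.0%. Among the 3846 other genes at the immature minimum they were 1.07%, 8.22%, 19.4% and 37.5%, with 33.9% at or above 0.

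Osteoblast libraries varied more than immature ones. The median SD of a gene over the 3 libraries was 1.04 on the log2 scale in osteoblasts and 0.35 in immature chondrocytes for the 90 genes, and 0.85 and 0.31 for the other genes at the immature minimum. The osteoblast libraries lay within a 2-fold range, u added, for 15 of the 90 genes (16.7%) and spread over more than 8-fold for another 15 (16.7%). Among the other genes at the immature minimum these shares were 24.2% and 13.3%. The highest osteoblast value was in replicate 1 for 28 genes, in replicate 2 for 35 and in replicate 3 for 27. The median difference from the immature mean was -2.61, -2.22 and -2.67 in osteoblast replicates 1, 2 and 3, so all 3 libraries were low for the typical gene of the set.

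**Figure D3:**
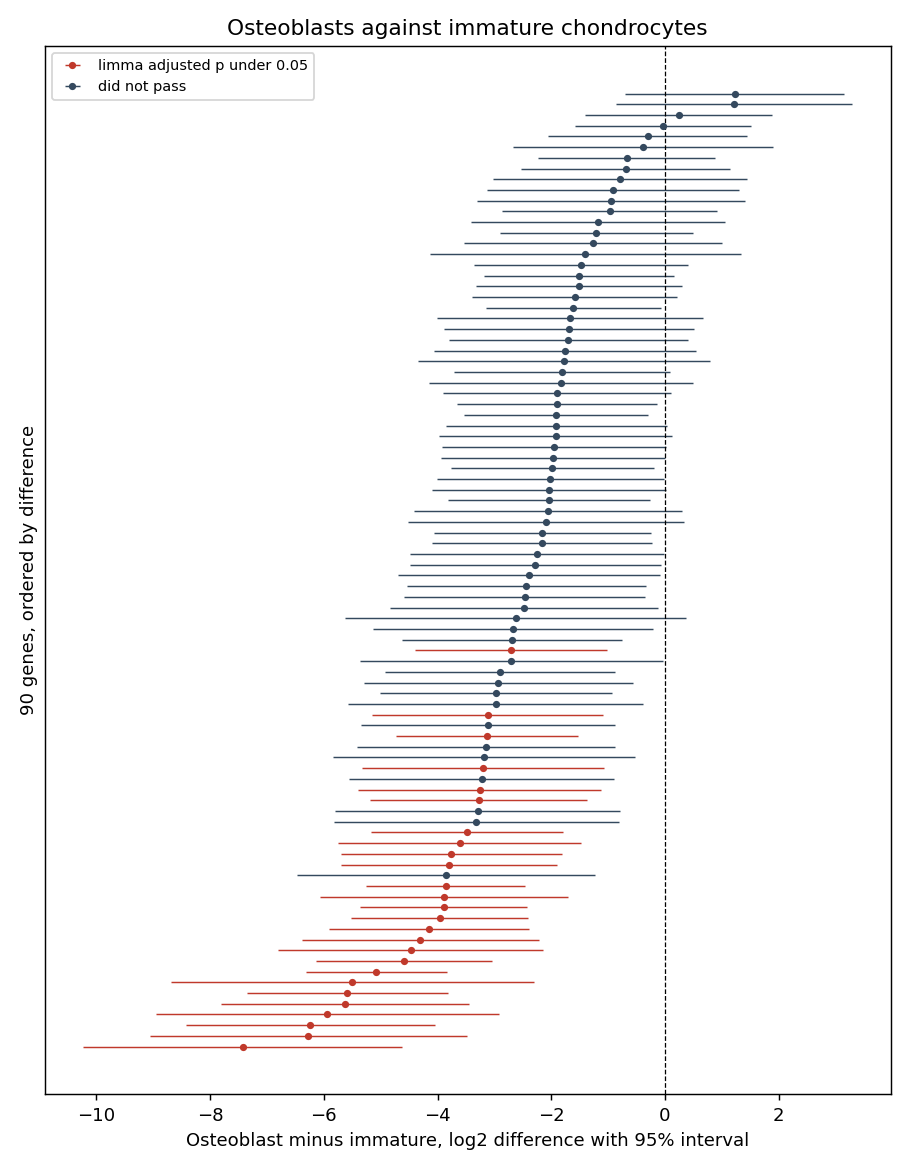
Osteoblast minus immature log2 difference of each of the 90 genes (points) with its unadjusted 95% limma interval (lines), ordered by the difference. The 26 genes that passed lie between -7.43 and -2.70, and the 3 genes above 0 all have intervals that include 0.

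ENSXETG00000001339 had the most negative difference. It held 6505, 7705 and 15368 normalised counts in the immature libraries. In osteoblasts it held 37, 7 and 187. In mature replicate 1 it stood at 14060 and in mature replicates 2 and 3 at 295 and 138. The immature libraries and mature replicate 1 were thus high and the other 5 libraries low, with no overlap. The osteoblast minus immature log2 difference was -7.43 (SE 1.30, limma adjusted p = 0.00175). Against all 3 mature libraries the osteoblast difference was -4.01 (SE 1.30, limma adjusted p = 0.0636) and did not pass.

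ENSXETG00000024127 was next. It held 591, 951 and 968 normalised counts in the immature libraries and 982 in mature replicate 1. Mature replicate 2 listed it at 0 and mature replicate 3 held 6. Osteoblast replicates 1 and 2 listed it at 0 and replicate 3 held 4. The same 4 libraries were high as for the gene before, and the other 5 lay under u. The fitted log2 difference of osteoblasts from immature chondrocytes was -6.27 (SE 1.30, limma adjusted p = 0.00550), a value that depends on the u added to counts near 0.

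In 6 of the 90 genes every osteoblast library lay under u, with 9 as the highest value among them. Their mean immature values ran from 132.7 to 836.7 normalised counts. In 1 of the 6 all 3 osteoblast libraries were listed at 0, while its immature values were 157, 117 and 124, that of mature replicate 1 was 82, and those of mature replicates 2 and 3 were 16 and 11. Among the 3846 other genes at the immature minimum, 0.338% had every osteoblast library under u.

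Few of the genes were as high in osteoblasts as in immature chondrocytes. The mean log2 level of osteoblasts was at or above that of immature chondrocytes for 3 of the 90 genes (3.33%), where 33.2% of the 3936 genes at the immature minimum met this. Every osteoblast library was at or above the lowest immature library for 3 genes as well (3.33%, against 21.2% of the 3936), of which 2 were the same genes. At least 1 osteoblast library reached the lowest immature library for 18 of the 90 genes. Of the 3846 other genes at the immature minimum, 76.5% met this. For the 18 genes it was 1 library for 11 of them, 2 libraries for 4 and all 3 for 3. The immature values also entered the choice of the 90 genes, which by itself favours low counts here. Without osteoblast replicate 1 the count by mean level was 5. With limma, 0 of the 90 genes passed in this direction, against 7.79% of all tested genes and 2.34% of the 3936. At an unadjusted limma p under 0.05 the count was 0 as well, with no count made over all tested genes.

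ENSXETG00000019879 had the highest osteoblast minus immature difference. Its immature values were 199, 350 and 184 normalised counts and its osteoblast values 209, 970 and 855. Mature replicate 1 held 147, under every immature library, while mature replicate 2 listed it at 0 and mature replicate 3 held 25. Osteoblast replicate 1 lay inside the immature range and the other osteoblast libraries above it. The difference from immature chondrocytes was 1.22 (SE 0.89, limma adjusted p = 0.408), with a 95% interval of -0.70 to 3.14. Against the 3 mature libraries the fitted difference was 3.94 (SE 0.89, limma adjusted p = 0.0105), but the choice of genes fixed mature replicates 2 and 3 to be low, so that call is given as a description.

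ENSXETG00000030632 had nearly the same difference. It held 106, 130 and 244 normalised counts in the immature libraries and 544, 138 and 619 in osteoblasts. Mature replicate 1 held 177, mature replicate 2 listed it at 0 and mature replicate 3 held 10. Osteoblast replicate 2 overlapped the immature range and the other osteoblast libraries were above it. Its difference from immature chondrocytes was 1.22 (SE 0.97, limma adjusted p = 0.453), with a 95% interval of -0.86 to 3.29. From mature chondrocytes the fitted difference was 3.51 (SE 0.97, limma adjusted p = 0.0295), again with mature replicates 2 and 3 fixed to be low by the choice of genes.

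A pair of further genes, picked out after their values were seen, complete both counts of 3. ENSXETG00000018847 held 448, 475 and 496 normalised counts in immature libraries, 464 in mature replicate 1, 40 and 54 in mature replicates 2 and 3, and 433, 326 and 1234 in osteoblasts. Osteoblast replicate 3 alone was above the immature libraries, and the difference was 0.24 (95% interval -1.41 to 1.89, limma adjusted p = 0.878). ENSXETG00000014778 held 157, 166 and 139 normalised counts in immature libraries, 153 in mature replicate 1, 21 and 16 in mature replicates 2 and 3, and 149, 160 and 142 in osteoblasts. Here 7 libraries lay between 139 and 166 and only mature replicates 2 and 3 were low. Its osteoblast minus immature difference was -0.03, with a 95% interval of -1.57 to 1.51. That interval rests on 1 spread fitted over all 3 groups, the split mature libraries included. Its width therefore does not describe the immature and osteoblast libraries alone.

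**Figure D4:**
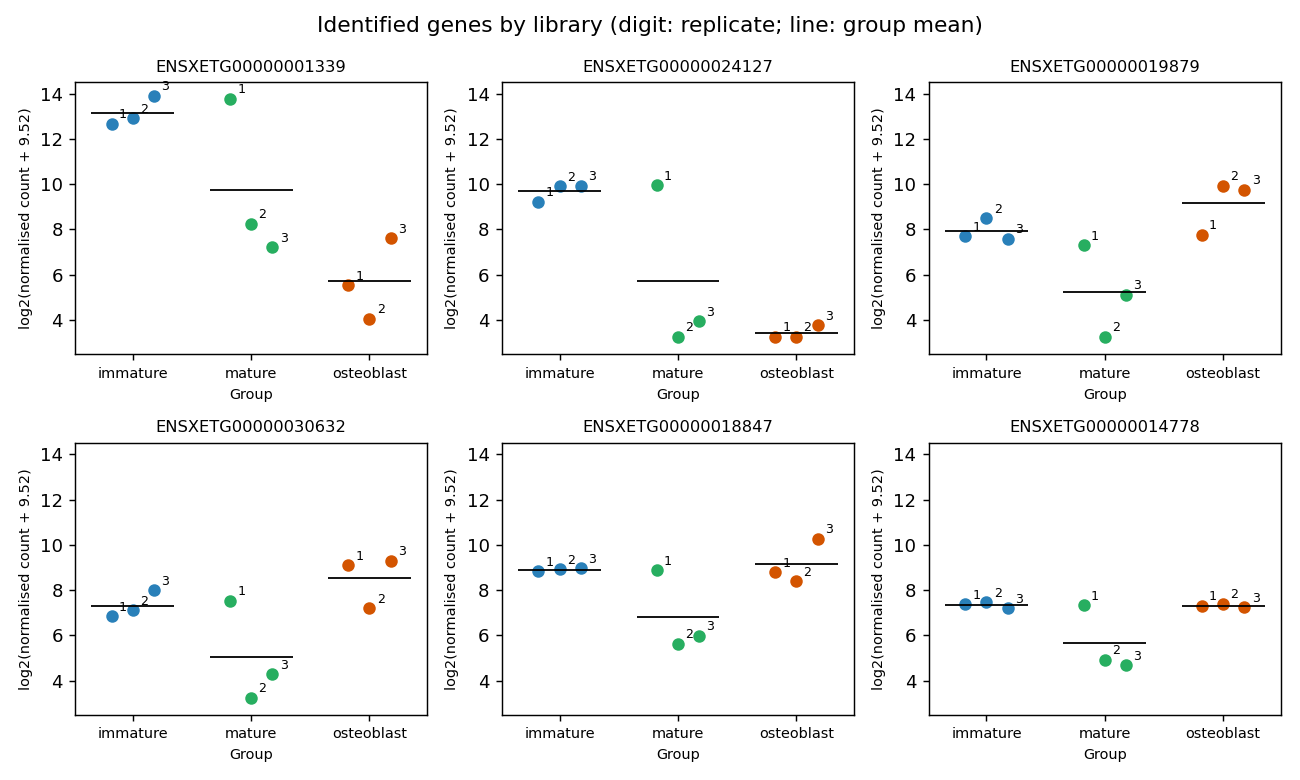
Level of 6 genes in each library as log2(normalised count + 9.52), with the replicate number beside each point and the group mean as a line. In each panel mature replicate 1 stands with or near the immature libraries and mature replicates 2 and 3 lie far below it, while the osteoblast libraries are low in the panels of ENSXETG00000001339 and ENSXETG00000024127 and at or above the lowest immature library, apart from 2 libraries of ENSXETG00000018847, in the other 4.

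Set against the mature group as a whole, few of the genes passed the test. In osteoblasts 4 of the 90 were called lower and 2 were called higher than in mature chondrocytes (limma, adjusted p under 0.05), where 4.52% of all tested genes were called lower and 7.21% higher, and 7.34% and 2.36% of the 3936 genes at the immature minimum. The 4 lower genes, with log2 differences of -3.78 to -2.21, were also lower in osteoblasts than in immature chondrocytes. The 2 genes called higher were ENSXETG00000019879 and ENSXETG00000030632, and as the choice fixed mature replicates 2 and 3 to be low, nothing is read from these calls. The median difference over the 90 genes was -0.13, against -0.12 over all tested genes.

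That comparison averaged unlike mature libraries. Without mature replicate 1 the median difference over the 90 genes was 1.13, and limma called 16 genes higher and 2 lower in osteoblasts, where 6.29% of all tested genes were called higher and 4.12% lower. The low values of mature replicates 2 and 3 were fixed by the choice of genes. The count of higher genes was 1 without mature replicate 2, without mature replicate 3, without osteoblast replicate 2 and without osteoblast replicate 3. Of all 9080 tested genes, 462, 502, 624 and 681 were called higher in these fits. The count of lower genes was 2 without mature replicate 1, without any 1 of the immature replicates, and without osteoblast replicate 1 or 2. In these fits 303 to 474 of all 9080 tested genes were called lower. The mean log2 level of osteoblasts was above that of mature replicates 2 and 3 for 71 of the 90 genes (78.9%), against 39.5% of the 3936 genes at the immature minimum, and the choice of genes with low values in those libraries favours this.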

How the data were processed

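Laser-captured RNA was amplified linearly in 1 round before library preparation, per the labels' protocols. Per the submitters' processing notes, the authors used Trimmomatic 0.36, STAR 2.5.3a and edgeR; the sources used here do not give the genome build, annotation, counting or scaling method. Deposited values are whole numbers and were treated as a score: in columns other than osteoblast replicate 1 the low values skip or double at regular steps, as counts do when a library is scaled and then rounded. That spacing gave the estimated reads; rounding kept exact reads from being recovered, so no count model was run. No gene had a highest value under 12, so the authors' table may have been filtered.

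Genes at u or more in at least 3 of 9 libraries were tested (9080). A limma model (limma 3.58.1, R 4.3.3) of all 3 groups with a variance trend was fitted on log2(value + u), with Benjamini-Hochberg adjustment over all tested genes; the added u understates differences of low genes. The model uses 1 spread for groups that differ in spread. The fit was tested on simulated data. Python 3.11.15, numpy 2.4.6, pandas 2.3.3 and matplotlib 3.10.9 were used. The genes and lists were chosen with earlier results of these data known. The 16 gene lists and cell type markers could not be used without symbols, and no sequence could be matched. Genes are therefore named by identifier: those with the 2 highest and 2 lowest osteoblast minus immature differences, called ones first, and 2 more that complete a count.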

Additional observations from a re-analysis of the deposited data

How the results depend on the processing

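Bringing every library to the same total before the choice gave 170 genes in place of 90, with all 90 among them. The same scaling moved the median log2 difference of all tested genes from -0.23 to -0.35 for osteoblasts against immature chondrocytes, and that of the 90 genes from -2.33 to -2.45. For osteoblasts against mature chondrocytes it moved them from -0.12 to 0.05 and from -0.13 to -0.02. For mature against immature chondrocytes the median of all tested genes moved from -0.09 to -0.37. The 26 genes lower in osteoblasts than in immature chondrocytes became 43 with only the 6 libraries compared, 23 to 34 in the other 7 settings and 14 to 47 when a library was left out. The count over all tested genes, 500 in the main fit, became 593, 400 to 625 and 174 to 649. Of the 90 genes, the 0 called higher (0 at an unadjusted p under 0.05) stayed 0 in all 17 alternatives. Over all tested genes 707 were called higher in the main fit and 448 to 790 in the alternatives. The 4 genes lower in osteoblasts than in mature chondrocytes became 2 with equal totals, with library quality weights and with only the 6 libraries compared, and 2 to 5 when a library was left out. The count over all tested genes, 410 in the main fit, became 284, 241, 185 and 226 to 506. The 2 higher genes became 1 with only the 6 libraries compared, and 1 to 16 when a library was left out. Over all tested genes 655 were called higher in the main fit, and 409 and 462 to 799 in these. The 3 genes as high in osteoblasts as in immature chondrocytes were 3 to 5 when a library was left out and 2 by medians. The 81 genes at or above the lowest immature library in mature replicate 1 stayed 81 with equal totals. For mature against immature chondrocytes no alternative was planned, and all were chosen for this contrast after seeing the data. The count of 0 became 85 with library quality weights and 0 to 66 when a library was left out, 66 without mature replicate 1. The cause of these shifts was not tested.

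Any pair of groups has a single title number in common. Across genes, same-numbered libraries deviated from their group means with correlations of 0.318, -0.098 and 0.104. Differently numbered libraries of unlike groups ran from -0.28 to 0.315, so the numbers were not shown to pair the libraries. The correlation that the fit with a random replicate block gave within a title number was 0.193. With the title number as a random replicate block, 28 of the 90 genes were called lower and 0 higher in osteoblasts than in immature chondrocytes. Of all 9080 tested genes, 625 were called lower and 771 higher there. Against mature chondrocytes 4 of the 90 were called lower and 3 higher in osteoblasts, and of all 9080 genes 489 and 715. Between mature and immature chondrocytes 0 were called, among all tested genes as well.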
